A study of Homo sapiens with 6 samples.

Results

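DNA glycosylases are the enzymes that open base excision repair, and 10 genes of this family were followed in the human line HuCCT-1, an established model of bile duct cancer (cholangiocarcinoma). The members were MUTYH, OGG1, NTHL1, UNG, TDG, NEIL1, NEIL2, NEIL3, MPG and SMUG1, taken by symbol, and each matched 1 row among the 60605 genes of the deposited count table. One group of cultures received 6 nM JNJ-64619178, a small-molecule inhibitor of the arginine methyltransferase PRMT5, for 4 days. The other received an equal volume of the solvent DMSO. Both groups were the same line in DMEM-F12 with serum and antibiotics, with 3 libraries of polyadenylated RNA in each, and the series addresses the effect of PRMT5 inhibition on gene expression in this cancer. The design therefore implies 1 comparison, inhibitor against DMSO, in 1 cell line, at 1 dose and 1 time.

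Base excision repair removes small lesions from DNA. A glycosylase recognises one damaged or mispaired base and cuts the bond that joins it to the sugar, an endonuclease then opens the strand, and a polymerase and a ligase fill and seal the gap. Each glycosylase has its own set of bases, so the family is usually described by substrate. The bases are oxidised guanine, oxidised pyrimidines, uracil and thymine in mispairs, and alkylated purines. Inherited loss of both copies of MUTYH or of NTHL1 causes colorectal polyposis, and oxidative base damage is a known feature of inflamed bile ducts.

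Libraries held 28133746 to 30691914 counted reads after DMSO and 23931991 to 28224911 after the inhibitor. The labels do not say whether replicates came from separate cultures, so p-values measure the spread between these libraries, which may be technical. All 7 cholangiocyte markers, among them KRT7, KRT19, KRT8, KRT18, EPCAM and SOX9, were present, with a summed level of 5321 to 5593 CPM (a gene's counts relative to its library's size, TMM-scaled) under DMSO and 4244 to 4525 CPM with the inhibitor. Of these 7 markers 4 fell and 1 rose, beside 17.1% lower and 20.0% higher among all genes tested. The 5 hepatocyte markers summed to at most 0.366 CPM and the 4 leukocyte markers to at most 0.28 CPM in any library, and APOA2 and TTR were at 0 throughout. The 3 endothelial markers summed to 0.546 to 0.761 CPM under DMSO and 0.89 to 1.12 CPM with the inhibitor. The 4 fibroblast markers summed to 32.7 to 38.1 CPM under DMSO and 61.2 to 63.5 CPM with the inhibitor, nearly all of it COL1A1, which rose, while LUM did not pass. The part of these marker changes in the results on the glycosylases was not tested. Among all 17371 genes that passed the filter on low counts, edgeR's quasi-likelihood test called 37.1% at an adjusted p under 0.05, 3478 higher and 2970 lower with the inhibitor (53.9% of the calls higher). With upper-quartile scaling the calls were 2800 higher and 4099 lower (40.6% higher). In bulk RNA, fewer cells that carry a transcript and less of it per cell cannot be told apart.

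All 10 glycosylases passed the filter. With the inhibitor, MUTYH rose about 3-fold, NEIL1 rose 1.78-fold and TDG rose by a small amount, and no member fell by the test. The count of 3 higher among 10 (30.0%) stood beside 20.0% higher among all genes tested, which with 10 genes is no result about the family as a whole. At an unadjusted p under 0.05, 4 members were higher and 0 lower, beside 7847 of all 17371 genes tested, 3723 of them lower. DESeq2 and limma-voom also called 3 members higher and 0 lower. The median log2 fold change of the 10 was 0.04, against 0.001 over all genes tested. The 3 inhibitor libraries lay above all 3 DMSO libraries for 4 members, MUTYH, NEIL1, TDG and UNG, and below them for 0 members. Of all genes tested, 47.0% had groups that did not overlap, 24.7% with the inhibitor higher and 22.2% with it lower.

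**Figure D1:**
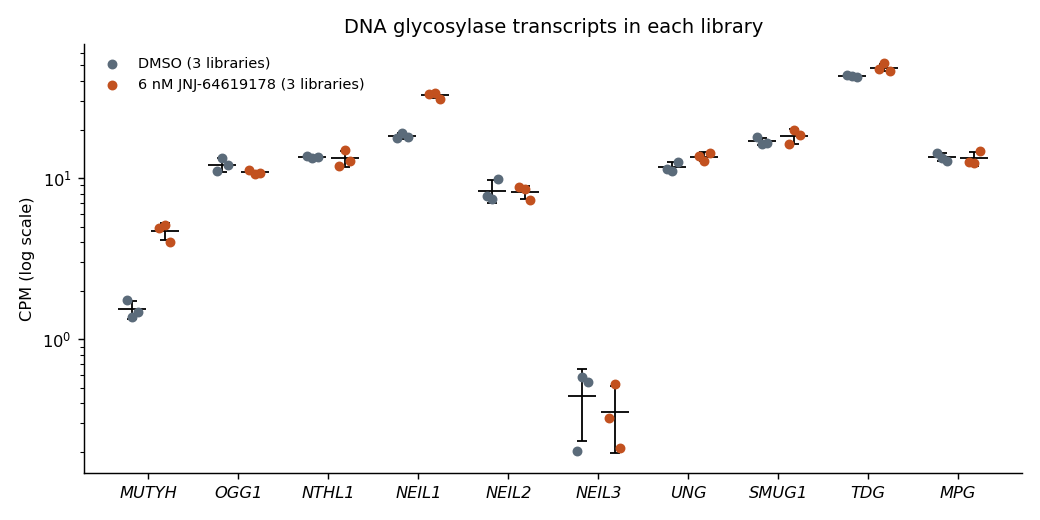
CPM of each glycosylase transcript on a log scale in the 3 DMSO libraries (grey) and the 3 libraries with 6 nM JNJ-64619178 (orange), with the mean and SD in black. MUTYH moves from 1.53 to 4.67 CPM and NEIL1 from 18.3 to 32.6 CPM with no overlap between groups, while the points of NTHL1, NEIL2, NEIL3, MPG, SMUG1 and OGG1 overlap.

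The start regions of the 3 called genes are shown so that the letters before each start can be seen beside its change. Each line gives the 250 bases before the most upstream RefSeq start of the gene in GRCh38.p14, 5′ to 3′ on the gene's own strand. By the GENCODE positions given below, the last bases of each line lie inside the gene. The MUTYH line also lies within the span of TOE1, a gene on the opposite strand. Capitals mark the CCAAT box (CCAAT or its reverse complement ATTGG).
MUTYH, chr1:45340441-45340690, minus strand: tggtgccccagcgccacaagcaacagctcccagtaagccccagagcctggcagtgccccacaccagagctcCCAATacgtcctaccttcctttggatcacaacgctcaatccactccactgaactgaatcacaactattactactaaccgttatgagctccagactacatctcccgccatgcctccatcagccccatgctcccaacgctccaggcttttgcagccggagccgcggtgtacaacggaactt
NEIL1, chr15:75346789-75347038, plus strand: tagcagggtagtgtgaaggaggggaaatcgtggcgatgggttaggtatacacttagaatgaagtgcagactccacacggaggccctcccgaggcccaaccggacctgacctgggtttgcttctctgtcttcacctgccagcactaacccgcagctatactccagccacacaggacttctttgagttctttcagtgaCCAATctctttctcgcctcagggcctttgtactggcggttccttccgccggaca
TDG, chr12:103965622-103965871, plus strand: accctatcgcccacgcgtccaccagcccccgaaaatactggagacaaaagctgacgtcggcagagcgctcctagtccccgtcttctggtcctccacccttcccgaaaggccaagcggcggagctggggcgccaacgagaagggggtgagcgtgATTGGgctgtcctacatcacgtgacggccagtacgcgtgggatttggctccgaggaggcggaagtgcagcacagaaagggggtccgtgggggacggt
For counting motifs, windows ran on to 50 bases after the start. The RefSeq table holds 13 such windows for 8 of the 10 members (not NEIL2 or SMUG1), 3 of them for MUTYH and 3 for NEIL1, some of which overlap. The CCAAT box was found on either strand in 9 of the 13, against 34.6% of all 35116 windows of the same 300 bases. The GC box (GGGCGG) was found in 10 of the 13, against 45.0% of all windows. It was in none of the 3 windows printed, but every other window of MUTYH and of NEIL1 held it. Among the NEIL1 windows, only the printed one held the CCAAT box. What the printed letters show thus depends on the start chosen. The ETS motif CCGGAAG lay in windows of NTHL1 and OGG1 (10.3% of all windows), and TATAAA (11.5%) in none of the 13. The E2F motifs TTTGGCGC (0.652% of all windows), TTTCGCGC (0.515%) and TTTCCCGC (1.63%) were in none either. They are so rare that 13 windows can say nothing about their absence. These matches describe the letters and were not tested against the expression values.

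Oxidised guanine is handled by a pair of members. OGG1 removes 8-oxoguanine that faces cytosine, and MUTYH removes the adenine that replication has wrongly placed opposite 8-oxoguanine. MUTYH (ENSG00000132781) lies on chromosome 1 at 45329163 to 45340470 on the minus strand (GENCODE release 29, GRCh38). It was a weakly expressed gene, with 52, 38 and 46 reads in the DMSO libraries and 120, 146 and 95 reads in the inhibitor libraries. Scaled to depth these were 1.74, 1.38 and 1.48 CPM under DMSO and 4.88, 5.11 and 4.03 CPM with the inhibitor. The lowest inhibitor library was thus well above the highest DMSO library, and the spread within either group was small beside the gap. The log2 fold change was 1.61 (SE 0.18, edgeR adjusted p = 1.63e-07), a 3.05-fold rise with a 95% interval of 2.35 to 3.96. Its log2 fold change was exceeded by 81 of the 17371 genes tested, and by 49 of the 13063 protein-coding genes among them.

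OGG1 did not pass the test, and the difference between its change and that of MUTYH was not tested. Its level was 11.0, 13.3 and 12.1 CPM under DMSO and 11.1, 10.6 and 10.7 CPM with the inhibitor. The groups overlapped, with 2 of the 3 DMSO libraries above every inhibitor library. The log2 fold change was -0.16 (95% interval -0.35 to 0.03, edgeR adjusted p = 0.192). NUDT1, which clears oxidised guanine nucleotides before they reach DNA, had 5.32 ± 0.813 CPM under DMSO and 5.13 ± 0.525 CPM with the inhibitor (SD, n = 3 libraries each) and did not pass either (log2 fold change -0.05, edgeR adjusted p = 0.805).

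Oxidised pyrimidines are the main substrates of NTHL1 and of the 3 NEIL enzymes. NEIL1, which also acts on DNA opened by replication and on ring-opened purines, was the second member with a clear rise. NEIL1 (ENSG00000140398) lies on chromosome 15 at 75346955 to 75357114 on the plus strand. Its level was 17.8, 19.2 and 18.0 CPM under DMSO and 33.1, 33.5 and 31.1 CPM with the inhibitor. All 3 inhibitor libraries lay within a narrow band far above the DMSO libraries. The log2 fold change was 0.83 (SE 0.07, edgeR adjusted p = 4.1e-10), a 1.78-fold rise with a 95% interval of 1.62 to 1.96, and 655 genes had a larger one.

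The other members of this substrate class did not pass the test. NTHL1, the broad bifunctional enzyme for oxidised pyrimidines, had 13.5 ± 0.194 CPM under DMSO and 13.3 ± 1.55 CPM with the inhibitor (SD, n = 3), and the 95% interval of its log2 fold change was -0.21 to 0.16. NEIL2, which acts at bubbles and transcribed DNA, ran from 7.43 to 9.92 CPM under DMSO and from 7.33 to 8.74 CPM with the inhibitor, with an interval of -0.28 to 0.22. For both genes the groups overlapped and the intervals excluded a change of the size seen for NEIL1. NEIL3, which is known mainly from dividing cells and from the unhooking of crosslinks, was close to the limit of detection. It had 6, 16 and 17 reads under DMSO and 8, 15 and 5 reads with the inhibitor. Its interval of -1.25 to 0.69 on the log2 scale allows a change in either direction at this depth (edgeR adjusted p = 0.678). Of 8 proliferation markers, 4 fell in these libraries, beside 17.1% lower among all genes tested. They were MKI67 (log2 fold change -0.84, edgeR adjusted p = 1.07e-05), TOP2A (-0.71, 0.000941), CCNA2 (-0.53, 0.00219) and PLK1 (-0.33, 0.0449). The call of PLK1 was lost in 7 of 13 alternatives, among them the fits without DMSO replicate 1 and without JNJ replicate 1, 2 or 3 (edgeR adjusted p over all alternatives 0.0179 to 0.295). The 8 markers summed to 56.7 to 58.7 CPM under DMSO and 40.7 to 45.8 CPM with the inhibitor, and their part in the NEIL3 and UNG values was not tested.

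**Figure D2:**
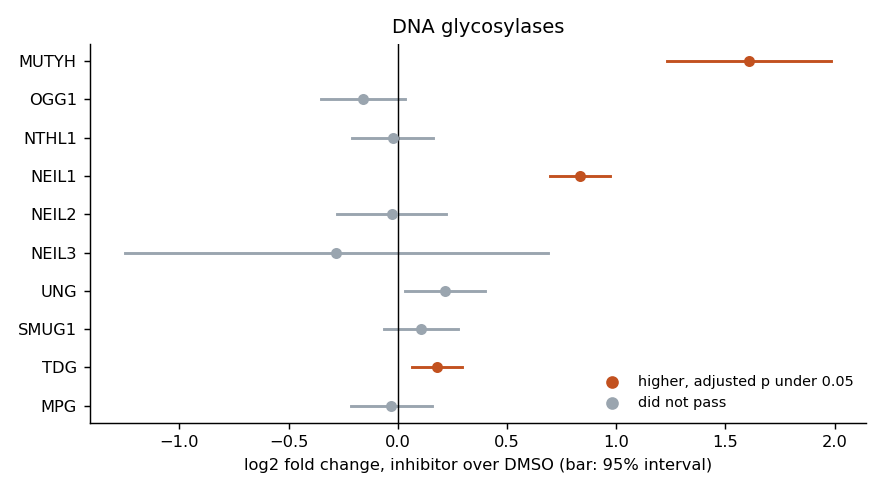
Log2 fold change of each glycosylase, inhibitor over DMSO, with its 95% interval from the edgeR fit (3 libraries per group); orange marks an adjusted p under 0.05 and grey the members that did not pass. The intervals of MUTYH (1.23 to 1.98) and NEIL1 (0.70 to 0.97) lie far to the right of 0, that of TDG lies just above it, and that of NEIL3 is the widest.

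Uracil and thymine in mispairs are removed by UNG, SMUG1 and TDG. All 3 had a log2 fold change above 0, as did 8725 of all 17371 genes tested. Of the 3, 1 passed, beside 37.1% called among all genes. With 3 genes this is no result about the class. TDG, which removes thymine from G:T mispairs and also takes out the oxidised forms of methylcytosine during demethylation, had 43.4, 42.8 and 42.6 CPM under DMSO and 47.7, 51.4 and 46.5 CPM with the inhibitor. The DMSO values were nearly identical and every inhibitor value lay above them. The rise was 1.13-fold (log2 fold change 0.18, SE 0.05, edgeR adjusted p = 0.012). This call did not hold without DMSO replicate 2 (adjusted p = 0.0592), DMSO replicate 3 (0.0524) or JNJ replicate 2 (0.0659), nor with upper-quartile scaling (0.0884). TDG (ENSG00000139372) lies on chromosome 12 at 103965804 to 103988874 on the plus strand.

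UNG, the principal uracil glycosylase of replicating nuclei and of mitochondria, had 11.4, 11.0 and 12.6 CPM under DMSO and 13.8, 12.7 and 14.3 CPM with the inhibitor. The groups did not overlap, though the lowest inhibitor value was close to the highest DMSO value. The difference missed the threshold (log2 fold change 0.22, SE 0.09, edgeR adjusted p = 0.0591), and it passed without DMSO replicate 3 (0.0441) and without JNJ replicate 2 (0.0342). UNG makes its nuclear and mitochondrial forms from different starts and splicing, and counts per gene do not separate them. SMUG1, a second uracil glycosylase that also takes hydroxymethyluracil, ran from 16.4 to 17.9 CPM under DMSO and from 16.2 to 20.0 CPM with the inhibitor. Its groups overlapped, with an interval of -0.07 to 0.27 and an edgeR adjusted p of 0.346. MBD4, a further glycosylase for G:T mispairs at methylated sites that is not among the 10, had 28.9 ± 1.94 and 30.1 ± 0.286 CPM (SD, n = 3) and did not pass (edgeR adjusted p = 0.49).

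MPG is the family's enzyme for alkylated purines such as 3-methyladenine. Its level was 14.4, 13.4 and 12.8 CPM under DMSO and 12.6, 12.4 and 14.8 CPM with the inhibitor. The highest and the lowest values both came from the inhibitor group, and the interval of the log2 fold change was -0.22 to 0.15 (edgeR adjusted p = 0.826).

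Levels of different genes were compared per exon length, as CPM per kilobase of all annotated exons. With DMSO the order ran from TDG (8.75 ± 0.0886) and MPG (8.15 ± 0.468) over NTHL1 (5.56), UNG (4.55), SMUG1 (2.82), NEIL1 (2.64), NEIL2 (2.48) and OGG1 (1.39) to MUTYH (0.392 ± 0.0484) and NEIL3 (0.149 ± 0.0708; SD, n = 3). SMUG1 and NEIL1, and NEIL1 and NEIL2, overlapped between libraries, and every other pair of neighbours was apart. With the inhibitor NEIL1 (4.69 ± 0.19) stood above SMUG1 (3.02 ± 0.317) with no overlap. MUTYH (1.20 ± 0.146) overlapped OGG1 (1.24 ± 0.0309), from which it had been apart under DMSO. NTHL1 and UNG also overlapped there. Summed over the 10 genes the level was 36.9 under DMSO and 41.4 with the inhibitor, of which MUTYH made up 1.06% and 2.89%, and NEIL1 7.15% and 11.4%. The lengths join the exons of all isoforms, so a gene with long, rarely used exons reads low and the order is approximate.

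**Figure D3:**
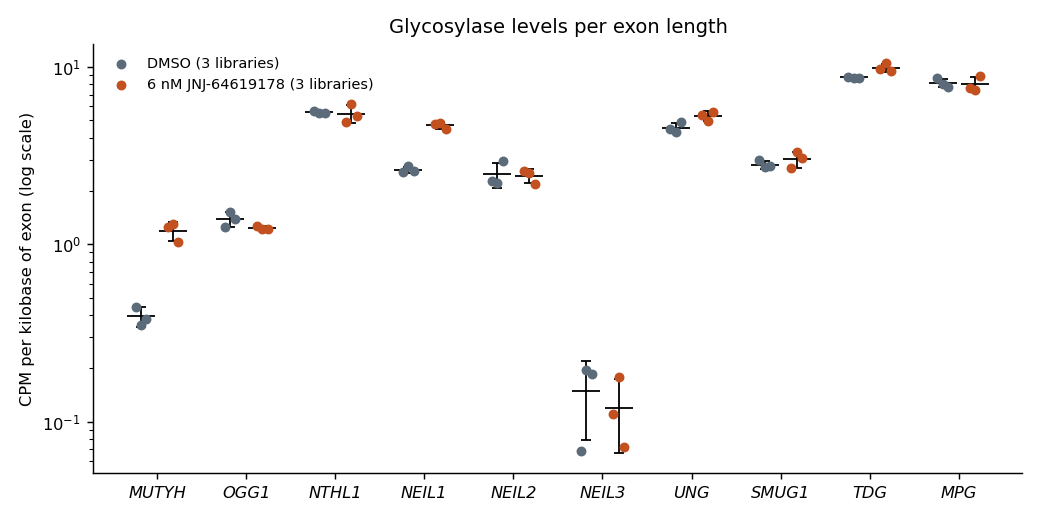
CPM per kilobase of exon of each glycosylase, on a log scale, in the 3 DMSO (grey) and 3 inhibitor (orange) libraries with mean and SD in black. TDG and MPG are at the top in both groups and NEIL3 at the bottom, while MUTYH moves up to the level of OGG1 and NEIL1 above SMUG1.

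Several members share exon sequence with a gene on the opposite strand, and how the counting treated strand is not stated by the sources used here. Reads there could have been lost or assigned to either gene. This limit also holds for members that did not pass. NPRL3 shares 27.3% of the exon bases of MPG (log2 fold change 0.11, edgeR adjusted p = 0.177). CAMK1 shares 25.0% of those of OGG1 (0.40, edgeR adjusted p = 0.0527), and neither of these neighbours passed. TSC2, which shares 16.5% of those of NTHL1 (0.17, edgeR adjusted p = 0.00514), was called higher. So was TADA3, which shares 4.08% of those of OGG1 (0.52, edgeR adjusted p = 1.37e-08). Of the exon bases of MUTYH, 14.1% lie in exons of TOE1, a deadenylase gene that starts beside it and runs the other way. TOE1 had 7.20, 8.30 and 7.26 CPM under DMSO and 6.59, 8.71 and 6.78 CPM with the inhibitor. Its groups overlapped and it did not pass (log2 fold change -0.03, interval -0.29 to 0.22, edgeR adjusted p = 0.857). The flanking genes HPDL (-0.31, edgeR adjusted p = 0.176) and TESK2 (0.09, 0.82) did not pass either. Of the exon bases of NEIL1, 26.4% lie in exons of MAN2C1, which encodes a cytosolic mannosidase. MAN2C1 fell from 175, 169 and 154 CPM to 121, 132 and 123 CPM, a log2 fold change of -0.40 (SE 0.05, edgeR adjusted p = 9.84e-07). This abundant neighbour therefore went down in the libraries in which NEIL1 went up. The other genes at this locus that were tested were COMMD4 (0.18, edgeR adjusted p = 0.0451), which lost its call in 10 of 13 alternatives (adjusted p 0.0225 to 0.2), among them the fits without any 1 DMSO library and without JNJ replicate 1 or 2, and MIR631 (-0.26), ENSG00000275645 (0.18) and ENSG00000260274 (-0.39), which did not pass. TDG shares no exon base with another gene. UQCC6, which begins 95 bases from it on the opposite strand, fell from 14.4 ± 0.396 to 12.2 ± 1.22 CPM (SD, n = 3; log2 fold change -0.25, edgeR adjusted p = 0.0289). That call was lost in 5 of 13 alternatives (adjusted p 0.00727 to 0.152), namely with DESeq2 and without DMSO replicate 1 or 2 or JNJ replicate 1 or 2. The processed pseudogenes TDGP1, UNGP3, UNGP1 and SMUG1P1 held 12, 2, 0 and 0 reads over all 6 libraries.

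**Figure D4:**
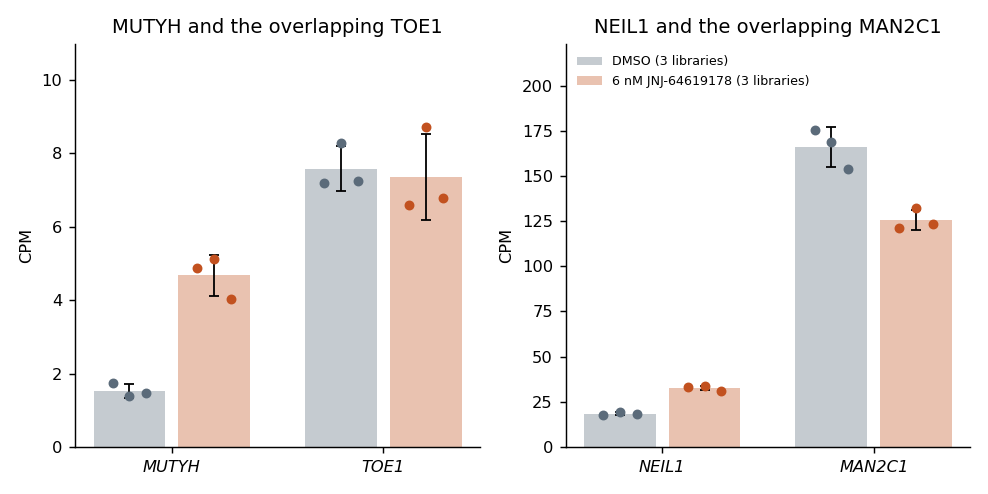
CPM of MUTYH and the overlapping TOE1 (left) and of NEIL1 and the overlapping MAN2C1 (right); bars are means and error bars SDs of 3 libraries per group, and points are libraries. MUTYH rises while the TOE1 libraries of both groups lie between 6.59 and 8.71 CPM, and NEIL1 rises while MAN2C1 falls from 166 to 126 CPM.

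The gene models of the 10 members differ widely. MUTYH, TDG and NEIL1 have 14, 11 and 10 merged exon blocks, and the other members have 5 to 13. MUTYH and NEIL1 span 11308 and 10160 bases, TDG 23071 bases, and the others 8052 to 67732 bases. Profiles nearest to that of MUTYH were sought among the 11486 protein-coding genes whose mean log2 CPM was 1 or more, by the root mean square difference of centred log2 CPM over the 6 libraries. The nearest were AVIL (0.104), DLX1 (0.122), IFI44 (0.132), SLC4A5 (0.136) and WNK4 (0.152). Their log2 fold changes were 1.49, 1.52, 1.61, 1.61 and 1.57. With 2 groups in 6 libraries this likeness mostly reads the same step between groups.

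The rest of the pathway was examined through 31 further genes of base excision repair, all of which were tested. They were the glycosylase MBD4 and genes of the steps that follow the glycosylase. Of these, 11 (35.5%) rose and 0 fell by edgeR, against 20.0% higher and 17.1% lower among all genes. At an unadjusted p under 0.05, 15 were higher and 0 lower, beside 7847 of all 17371 genes tested, 3723 of them lower. DESeq2 and limma-voom each called 11 higher and 0 lower. The median log2 fold change was 0.13.

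Among the enzymes that cut and trim the strand, APEX1, the main endonuclease at abasic sites, rose from 71.3 ± 5.07 to 88.6 ± 2.81 CPM (SD, n = 3; log2 fold change 0.31, edgeR adjusted p = 5.09e-05). TDP1, which clears blocked 3′ ends, rose by 0.24 on the log2 scale (0.00383), and APEX2, APTX and APLF did not pass. In the short patch branch, POLL, a gap-filling polymerase, rose by 0.21 (0.00251). POLB, the principal gap-filling enzyme, had 22.6 ± 0.65 and 23.8 ± 0.641 CPM, the ligase LIG3 44.9 ± 1.31 and 43.1 ± 4.28 CPM and the scaffold XRCC1 19.0 ± 0.624 and 21.2 ± 0.696 CPM under DMSO and inhibitor. These 3 did not pass, with edgeR adjusted p of 0.411, 0.48 and 0.0806.

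The long patch branch, which shares its enzymes with replication, had 6 of 16 higher (37.5%), beside 20.0% among all genes tested. The other 10 were not called, and the median log2 fold change of the 16 was 0.03. POLD1, the catalytic subunit of polymerase delta, rose from 29.9 ± 1.79 to 47.3 ± 2.41 CPM (SD, n = 3; log2 fold change 0.66, edgeR adjusted p = 4.6e-09). The delta subunits POLD3 (0.51) and POLD4 (0.45), the epsilon subunits POLE (0.33) and POLE4 (0.41) and the clamp loader subunit RFC4 (0.40) rose too. FEN1, the flap nuclease, had a log2 fold change of -0.09 and the ligase LIG1 one of 0.16, and neither passed (edgeR adjusted p of 0.527 and 0.1). Of 4 genes that add or remove ADP-ribose, which marks strand breaks, PARP1 rose from 98.3 ± 2.47 to 118 ± 8.07 CPM (0.26, edgeR adjusted p = 0.000243). PARP3 rose by 0.37 on the log2 scale (0.000299). PARP2 and PARG did not pass. All 11 of these calls held under every alternative that was run.

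**Figure D5:**
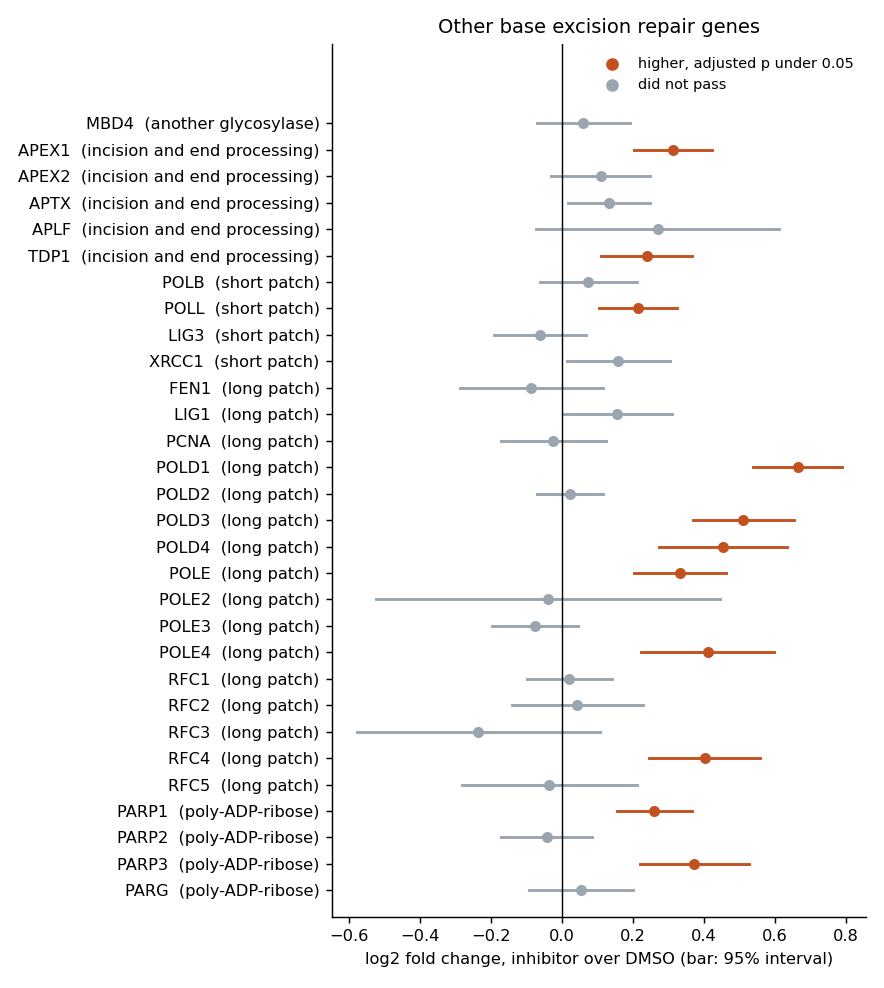
Log2 fold change, inhibitor over DMSO, with its 95% interval for 30 of the 31 other genes of base excision repair, grouped by step (3 libraries per group); orange marks an adjusted p under 0.05. The 11 called genes all lie to the right of 0, with POLD1 farthest at 0.66, and 0 were called lower.

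Of 15 genes that make or limit glycosylase substrates, 10 were tested, 2 rose (20.0%, the same share as among all genes) and 0 fell. At an unadjusted p under 0.05, 2 were higher and 1 lower, beside 7847 of all 17371 genes tested, 3723 of them lower. TET3, an oxidase that turns methylcytosine into substrates of TDG, rose from 48.2 ± 1.2 to 54.7 ± 2.86 CPM (SD, n = 3; log2 fold change 0.18, edgeR adjusted p = 0.00986). It did not pass with upper-quartile scaling or without DMSO replicate 1 or 2 or JNJ replicate 1 (adjusted p over all alternatives 0.00295 to 0.0696). DUT, which keeps uracil out of the nucleotide pool, rose by 0.17 (edgeR adjusted p = 0.0346) and lost its call in 9 of 13 alternatives, among them the fits without any 1 DMSO library and without JNJ replicate 1 or 2 (adjusted p 0.0307 to 0.208). DESeq2 called 1 member higher, and limma-voom called 2 higher and 1 lower. Among the cytosine deaminases, APOBEC3A, APOBEC3D, APOBEC3G and APOBEC3H had at most 16 reads in any library and were not tested, and APOBEC3B, APOBEC3C and APOBEC3F were tested and did not pass. APOBEC3C had 10.3 ± 0.432 CPM under DMSO and 11.6 ± 0.297 CPM with the inhibitor (SD, n = 3).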

How the data were processed

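RNA-seq libraries of polyadenylated RNA were made with a stranded Illumina mRNA kit per the labels' protocols. The authors deposited 1 table of raw counts per gene. The submitters' processing notes list STAR (2.7.9a), featureCounts (1.6.0), FastQC (0.11.8), limma and edgeR. GRCm39, a mouse build, is also listed there, but every identifier in the table is a human Ensembl one, so the build is uncertain. Strand, annotation release and the treatment of multi-mapping reads: not given in the sources used here.

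From 60649 rows, 44 repeated identifiers with 0 counts were dropped. Symbols came from the reference table (60463 of 60605 genes), positions and exon lengths from GENCODE release 29 (GRCh38), which may differ from the annotation behind the counts. Genes were kept with filterByExpr (minimum count 10, minimum total 15) and scaled by TMM. The group was fitted with glmQLFit and tested, two-sided, with glmQLFTest (edgeR 4.0.16), with Benjamini-Hochberg adjustment over all 17371 genes at 0.05. The standard error is the log2 fold change over the root of F, and the interval of 95% follows from it. The common coefficient of variation was 4.89%. Replicates differed beyond sampling noise (their chi-square over its degrees of freedom was 2.68 to 8.93). Same-numbered libraries did not deviate together (correlations of -0.31, -0.003 and -0.11 over 5000 genes), so numbers were not treated as pairs. Scripts were tested on simulated data. Named were all members, all called genes of the lists, the defining enzyme of each step, tested genes overlapping or flanking a called member and the 5 profiles nearest to MUTYH. Members and lists were chosen with earlier results of these data known. Alternatives were RLE and upper-quartile scaling, 2 other filters, DESeq2 1.42.0, limma-voom (limma 3.58.1), the replicate block and leaving out each library. Counts over lists include a few genes that are not reported here by name. R 4.3.3 and Python 3.11.15 were used. Promoter sequences are RefSeq's (GRCh38.p14).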

Additional observations from a re-analysis of the deposited data

How the results depend on the processing

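Under all 13 alternatives, MUTYH (log2 fold change 1.53 to 1.70) and NEIL1 (0.78 to 0.87) kept their call, and the number of glycosylases called was 2 or 3, all higher, with 2 under upper-quartile scaling and without DMSO replicate 2. NEIL3 was removed where CPM had to exceed 1 in 3 or more libraries and has 12 alternatives. TDG did not pass in 4 alternatives, all named above, and UNG passed in 2. Signs of members near 0 turned when 1 library was left out, with no call on either side. NTHL1 ranged from -0.13 to 0.05 (0.047 without JNJ replicate 1), NEIL2 from -0.11 to 0.11 (0.11 and 0.043 without DMSO or JNJ replicate 3) and MPG from -0.11 to 0.02 (0.0096 without DMSO replicate 1, and 0.0019 and 0.020 without replicate 1 or 2 of JNJ). The same held for TOE1, from -0.18 to 0.04 (0.025 without DMSO replicate 2, and 0.042 and 0.022 without replicate 1 or 3 of JNJ), and for TESK2, from -0.22 to 0.29 (-0.054 and -0.22 without DMSO replicate 1 or JNJ replicate 2). Of the genes that make or limit substrates, 2 were called, but 1 with upper-quartile scaling (lower), 1 with DESeq2, and 0 to 3 with 1 library left out, with 0 without DMSO replicate 1 or 2. The cause was not tested. With the replicate block, 6132 genes, 3 glycosylases and 11 further genes of base excision repair were called, and TDG (adjusted p = 0.0216) kept its call. The block ended the calls of DUT, PLK1 and COMMD4. Same-numbered libraries did not deviate together, but with so few libraries in each group this cannot exclude pairing. Upper-quartile scaling lowered the median of all genes by 0.06 on the log2 scale (the shift was -0.06). Depth limits NEIL3, with 5 to 17 reads a library, and MUTYH under DMSO, with 38 to 52 reads.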

Other observations

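Genes that overlap or flank the 7 glycosylases that did not pass were named after their values were seen. Of 16 that were tested, 5 were called (31.2%), a share below the 37.1% called among all genes, so the 5 are given as values only. TADA3, a subunit of histone acetyltransferase coactivators that shares 4.08% of the exon bases of OGG1 on the opposite strand, rose from 56.2 ± 1.41 to 80.3 ± 3.26 CPM (SD, n = 3; log2 fold change 0.52, edgeR adjusted p = 1.37e-08). TSC2, a brake on mTOR signalling that shares 16.5% of the exon bases of NTHL1, rose by 0.17 (edgeR adjusted p = 0.00514), and NHERF2, on the other side of NTHL1, fell by 0.24 on the log2 scale (0.000404). GATA4, a transcription factor gene 9636 bases from NEIL2, had a log2 fold change of -0.50 (edgeR adjusted p = 0.0112). CBX5, which encodes a heterochromatin protein and is the nearest gene on one side of SMUG1, 41931 bases away, had one of -0.17 (0.0168). The stability of these 5 calls under the alternatives was not computed.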
